A study of Mus musculus with 16 samples.

Results

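Transcripts of 10 antioxidant enzymes were followed in endothelial cells (ECs) from the lung vessels of young and aged mice, with and without lung injury. The enzymes are the superoxide dismutases Sod1, Sod2 and Sod3, the glutathione peroxidases Gpx1 and Gpx3, catalase (Cat), the glutathione S-transferase Gsta3, the quinone reductase Nqo1, the aldehyde dehydrogenase Aldh1a1 and heme oxygenase 1 (Hmox1). They were taken by gene symbol from the deposited RNA-seq table, where all 10 were found among 43346 genes. The 16 libraries form 4 groups of FVB mice, which the study's methods describe as Col1a1-GFP transgenic animals of mixed sex. Young Sham (n = 5) and Young Bleo (n = 4) mice were 2 months old, and Aged Sham (n = 3) and Aged Bleo (n = 4) mice were 18 months old. Bleo mice received bleomycin, a drug that injures the lung and leaves fibrosis, through the trachea, and Sham mice received PBS by the same route. Lungs were taken weeks after delivery, at a time the study calls early in the resolution of fibrosis, so acute responses were not measured. All 4 groups carry the collagen reporter, and the cells were sorted as positive for CD31 and negative for CD45, EpCAM and GFP, a gate meant to discard leukocytes, epithelium and cells with an active Col1a1 promoter. The labels give neither the sex of each library nor a sequencing batch.

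Superoxide formed by mitochondria and oxidases is turned into hydrogen peroxide by the dismutases, of which Sod1 works in the cytosol, Sod2 in mitochondria and Sod3 outside the cell. Hydrogen peroxide is then removed by catalase in peroxisomes and by the glutathione peroxidases, Gpx1 within cells and Gpx3 as the secreted form found in plasma. Gsta3, Nqo1 and Aldh1a1 dispose of electrophiles, quinones and aldehydes, Hmox1 breaks down heme, and many such genes can be induced by the transcription factor NRF2 through antioxidant response elements. In the lung, ECs are among the first cells to meet oxidants carried by blood or released by leukocytes.

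Libraries held 20.9 to 71.0 M counts (M, mega), and each of the 10 enzymes passed the filter on low counts in every comparison. The endothelial markers Pecam1 and Cdh5 were at 66.6 to 152 FPKM and 67.6 to 111 FPKM over all libraries, where FPKM is fragments per kilobase of gene and mega-fragments of library. The sum of 9 endothelial markers was 2446 to 2831 FPKM in Young Sham, 2051 to 2395 FPKM in Aged Sham, 1366 to 1911 FPKM in Young Bleo and 1251 to 1985 FPKM in Aged Bleo, so it was lower in every Bleo library than in any Sham library. Other marker lists differed between groups too. The summed level of 6 markers of aerocytes, the capillary ECs apposed to the alveolar epithelium, was 1513 to 1940 FPKM in Young Sham, 1139 to 1779 FPKM in Aged Sham, 208 to 945 FPKM in Young Bleo and 193 to 1271 FPKM in Aged Bleo. The sum of 11 macrophage and leukocyte markers was 23.1 to 43.5 FPKM in Young Sham, 52.9 to 182 FPKM in Aged Sham, 153 to 443 FPKM in Young Bleo and 211 to 1554 FPKM in Aged Bleo. Within Aged Bleo, libraries 1 and 2 stood apart, with aerocyte sums of 193 and 332 FPKM and macrophage and leukocyte sums of 1554 and 877 FPKM. Libraries 3 and 5 had aerocyte sums of 1271 and 997 FPKM and macrophage and leukocyte sums of 360 and 211 FPKM. Epithelial transcripts were present in every library, with alveolar epithelial sums of 53.8 to 390.2 FPKM over 7 markers and club cell sums of 5.28 to 411 FPKM over 3, neither set apart by group. In bulk libraries, fewer cells of a type and less RNA per cell cannot be told apart, and this applies to each result below.

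Promoters are shown for the enzymes whose transcripts were higher in Aged Sham than in Young Sham by both count tests used here, Gsta3, Gpx3 and Aldh1a1. Each is the RefSeq sequence (GRCm38.p6) from 250 bases before to 50 bases after the annotated start, on the plus strand, and capitals mark 1 of 2 motifs searched on both strands. The first is TGACNNNGC, the core of the antioxidant response element, and the second is AGGAAG, a core bound by ETS factors, the family of the study's factor ERG. The motifs searched do not overlap in these windows. A match is a description of letters and not of a bound site.
Gsta3 chr1:21240335-21240634: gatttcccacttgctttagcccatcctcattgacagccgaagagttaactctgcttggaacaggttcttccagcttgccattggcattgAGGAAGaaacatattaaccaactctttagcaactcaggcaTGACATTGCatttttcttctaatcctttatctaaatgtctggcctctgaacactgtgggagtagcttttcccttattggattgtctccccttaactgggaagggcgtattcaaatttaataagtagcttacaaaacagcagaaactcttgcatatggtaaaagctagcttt
Gpx3 chr11:54902604-54902903: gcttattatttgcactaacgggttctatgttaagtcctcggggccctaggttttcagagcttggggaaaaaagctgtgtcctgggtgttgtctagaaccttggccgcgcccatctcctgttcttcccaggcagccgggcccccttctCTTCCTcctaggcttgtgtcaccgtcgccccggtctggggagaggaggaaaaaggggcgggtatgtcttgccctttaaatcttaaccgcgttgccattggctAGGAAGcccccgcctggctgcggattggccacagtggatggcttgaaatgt
Aldh1a1 chr19:20601718-20602017: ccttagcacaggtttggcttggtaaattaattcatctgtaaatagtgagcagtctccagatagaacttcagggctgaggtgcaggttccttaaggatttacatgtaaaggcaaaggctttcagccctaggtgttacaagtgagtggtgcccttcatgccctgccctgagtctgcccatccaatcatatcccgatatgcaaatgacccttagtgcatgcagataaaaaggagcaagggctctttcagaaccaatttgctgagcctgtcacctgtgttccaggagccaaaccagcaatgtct
Gsta3 holds the response element core TGACATTGC starting 121 bases before its start and the ETS core 161 bases before it. Gpx3 holds the ETS core on both strands, 103 bases and 1 base before the start, and no response element core. The Aldh1a1 window holds neither, which says only that these letters are not in it. RefSeq gives a further Aldh1a1 start, whose window at chr19:20492333-20492632 lies outside the deposited gene and is not shown, and it also holds neither. Over 32851 promoter windows of this length, 12.4% held the response element core and 35.4% held the ETS core. RefSeq sequences were matched for 8 of the 10 enzymes, without Sod3 and Hmox1. Among the others, the response element core was found in Sod1, and the ETS core in Gpx1 and Cat.

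All 10 are protein coding genes. In mm10 coordinates of the deposited table, Gsta3 (ENSMUSG00000025934) spans chr1:21240589-21265661, Gpx3 (ENSMUSG00000018339) chr11:54902453-54910377 and Aldh1a1 (ENSMUSG00000053279) chr19:20601961-20643462, all on the plus strand. The deposited Gpx3 gene thus begins upstream of the RefSeq start used for its promoter window. Sod3 (ENSMUSG00000072941) spans chr5:52363946-52371405, Hmox1 (ENSMUSG00000005413) chr8:75093591-75100596 and Gpx1 (ENSMUSG00000063856) chr9:108338903-108340343. Sod1 was the member with a near copy, Gm8566, which is 97.8% identical over 465 bases and had a mean of 7.66 FPKM, so its counts are uncertain where reads could be split. Sod1 also overlaps Scaf4 on the opposite strand (mean 1.81 FPKM), and Gsta3 overlaps the antisense gene Gm28836 (mean 0.00944 FPKM).

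In uninjured young ECs, the peroxidases and Sod1 led the enzymes on the FPKM scale. Gpx3 was highest at 135 ± 7.66 FPKM (SD, n = 5), followed by Gpx1 at 80.6 ± 8.33 FPKM and Sod1 at 78.6 ± 14.5 FPKM. Gpx3 exceeded Gpx1 in all 5 Young Sham libraries without overlap of their ranges, whereas Gpx1 and Sod1 overlapped. Cat followed at 19.2 ± 2.08 FPKM, Sod2 at 13.0 ± 1.66 FPKM, Hmox1 at 7.74 ± 0.126 FPKM and Sod3 at 7.30 ± 0.618 FPKM. Nqo1 at 3.96 ± 1.5 FPKM and Aldh1a1 at 2.83 ± 1.02 FPKM came next, and their ranges overlapped. Gsta3 was last at 0.230 ± 0.0709 FPKM, and its lowest count over all libraries was 50.

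The order at the top differed between groups. Gpx3 led again in Aged Sham, at 396 ± 84.4 FPKM (SD, n = 3) against 104 ± 24.8 FPKM for Gpx1, with ranges apart. In Young Bleo, Gpx1 led at 129 ± 34.2 FPKM and Gpx3 was in place 3 at 42.5 ± 11.7 FPKM (SD, n = 4), below Sod1 in all 4 libraries. In Aged Bleo, Gpx3 at 156 ± 82.6 FPKM and Gpx1 at 101 ± 24.5 FPKM (SD, n = 4) overlapped, and Gpx3 was the higher in 2 of 4 libraries. The ratio of Gpx3 to Gpx1 was 1.59 to 1.92 in Young Sham, 3.32 to 4.97 in Aged Sham and 0.209 to 0.726 in Young Bleo, so these 3 groups did not overlap. In Aged Bleo the ratio was 0.466 and 0.981 in libraries 1 and 2 and 2.75 to 2.85 in the other 2.

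**Figure D1:**
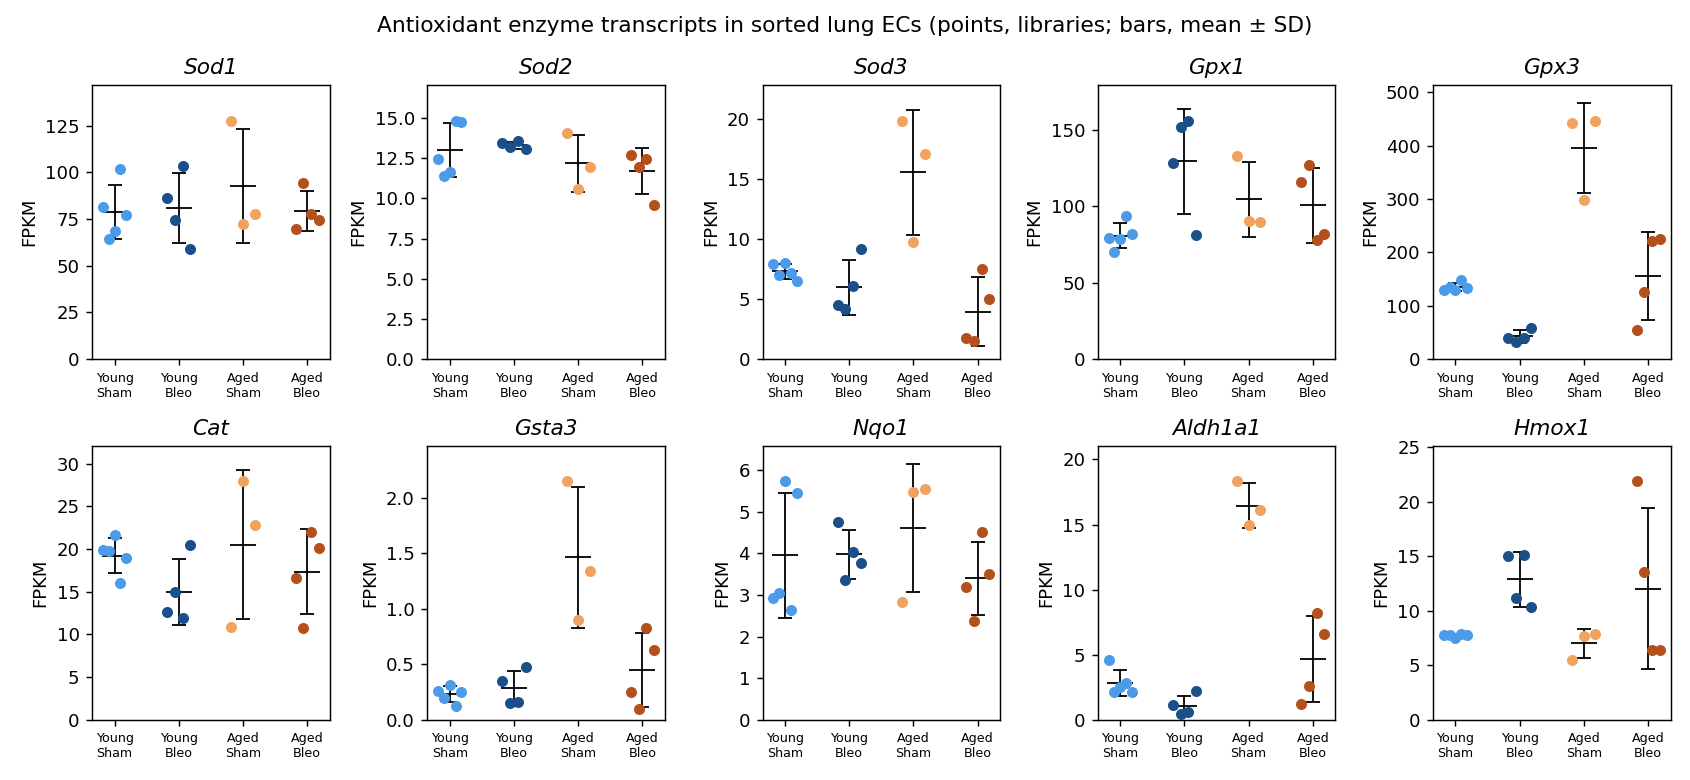
FPKM of each enzyme (linear axes from 0) in the 4 groups, with points for libraries and bars for the mean ± SD. Gpx3, Aldh1a1 and Gsta3 were higher in all 3 Aged Sham libraries than in any Young Sham library, and Sod2 stayed between 9.60 and 14.8 FPKM in all 16.

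The comparison of Aged Sham with Young Sham sets sorted cells of uninjured aged mice against those of uninjured young mice. Aldh1a1, Gsta3 and Gpx3 were upregulated in aged ECs, and the other 7 enzymes did not pass the test. A call needed a DESeq2 adjusted p no higher than 0.05 and a log2 fold change of 0.5 or more in size. By this rule 3 of 10 enzymes were called higher, where 2.19% of all genes tested were, and 0 were called lower, where 1.10% of all genes were. The edgeR quasi-likelihood test called the same 3 higher and none lower, against 0.862% of genes called in either direction. No enzyme with a negative change had an unadjusted p under 0.05 by either tool. The median log2 fold change was 0.45 over the 10 enzymes and 0.02 over all genes. The study's text names Sod3 and Gpx3 among genes upregulated in aged ECs, and all 10 enzymes were chosen with results of these libraries known, so their direction here is not independent evidence.

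Gpx3, the secreted peroxidase, was at 443, 299 and 447 FPKM in Aged Sham 13, 14 and 15, and at 129, 135, 129, 148 and 132 FPKM in Young Sham 21 to 25. The lowest aged library was thus above the highest young one. The increase was 3.23-fold, a log2 fold change of 1.69 (SE 0.331, DESeq2 adjusted p = 7.7e-05, edgeR adjusted p = 0.0192).

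Aldh1a1, which oxidizes retinaldehyde and other aldehydes, was at 18.3, 15.0 and 16.1 FPKM in Aged Sham and at 4.58, 2.11, 2.52, 2.80 and 2.15 FPKM in Young Sham. The groups did not overlap, and Young Sham 21 was the highest young library. The increase was 6.39-fold, a log2 fold change of 2.68 (SE 0.514, DESeq2 adjusted p = 5.4e-05, edgeR adjusted p = 0.0213).

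Gsta3, which conjugates glutathione to electrophiles, was at 2.15, 0.898 and 1.34 FPKM in Aged Sham and at 0.256, 0.199, 0.314, 0.126 and 0.254 FPKM in Young Sham. Its level was low in both groups, yet the groups did not overlap. The increase was 7.13-fold, a log2 fold change of 2.83 (SE 0.550, DESeq2 adjusted p = 6.48e-05, edgeR adjusted p = 0.0213). These 3 calls were kept in all 16 fits that left out 1 library each, and with limma on log2(FPKM + 0.1) Gpx3 alone of them missed the threshold (adjusted p = 0.0519).

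Sod3, the extracellular dismutase, was at 19.8, 9.70 and 17.0 FPKM in Aged Sham and at 7.86, 6.96, 7.97, 7.18 and 6.50 FPKM in Young Sham. All 3 aged libraries were above the young ones, but the log2 fold change of 1.23 (SE 0.412, 95% interval 0.42 to 2.04) did not pass the test across all genes (DESeq2 adjusted p = 0.0697, edgeR adjusted p = 0.188). The call depended on the spread estimated from the Aged Bleo libraries, since it passed without Aged Bleo 1, 2 or 3 (DESeq2 adjusted p = 0.0309, 0.0253 and 0.0195) and in a fit on Aged Sham and Young Sham alone (adjusted p = 1.9e-05). For each of Gpx3, Aldh1a1, Gsta3 and Sod3, an exact two-sided permutation test of log2(FPKM + 0.1) gave p = 0.0179, the smallest that 3 against 5 libraries allow. The same test in the comparisons below gave 0.00794 for Gpx3 and Hmox1 and 0.0238 for Aldh1a1 and Gpx1 in Young Bleo against Young Sham. In Aged Bleo against Aged Sham it gave 0.0571 for Sod3, Aldh1a1 and Gsta3 and 0.0857 for Gpx3, and in Aged Bleo against Young Bleo 0.0571 for Gpx3 and Aldh1a1, where the smallest possible was 0.0286.

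The intracellular dismutases, catalase, Gpx1, Nqo1 and Hmox1 gave log2 fold changes of -0.02 to 0.51 in Aged Sham. The largest was Gpx1 at 0.51 (95% interval -0.0019 to 1.03, DESeq2 adjusted p = 0.35), and the smallest in size was Hmox1 at -0.02 (95% interval -0.68 to 0.64). Markers of other cells moved in the same comparison. The mesothelial list rose from 0.0237 to 1.42 FPKM in Young Sham to 3.93 to 13.9 FPKM in Aged Sham, with Wt1 at 0 in all Young Sham libraries and 4 of 6 markers called higher. Platelet markers summed to 255 to 483 FPKM in Young Sham and 581 to 3160 FPKM in Aged Sham, with 3 of 4 called higher, and the highest was library 14. Erythroid markers summed to 30.0 to 160 FPKM in Young Sham and 234 to 495 FPKM in Aged Sham, with 2 of 6 called higher. Venous markers, at 18.2 to 27.5 and 23.4 to 52.9 FPKM, had 2 of 5 called higher. General capillary markers, at 500 to 710 and 358 to 550 FPKM, and mural markers, at 30.6 to 75.5 and 20.1 to 33.7 FPKM, each had 2 of 7 called lower. Fibroblast markers, at 15.96 to 35.7 and 17.4 to 40.8 FPKM, had 1 of 7 called higher. Among them Pdgfra had a median of 0.311 FPKM in Young Sham and 1.42 FPKM in Aged Sham, and Col1a1 and Col3a1 had medians of 1.81 and 4.95 FPKM in Young Sham and 0.827 and 1.66 FPKM in Aged Sham. The part of these markers in the changes of the enzymes was not tested. The aerocyte sums overlapped between Aged Sham and Young Sham, and the median log2 fold change of the 6 markers was -0.16.

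**Figure D2:**
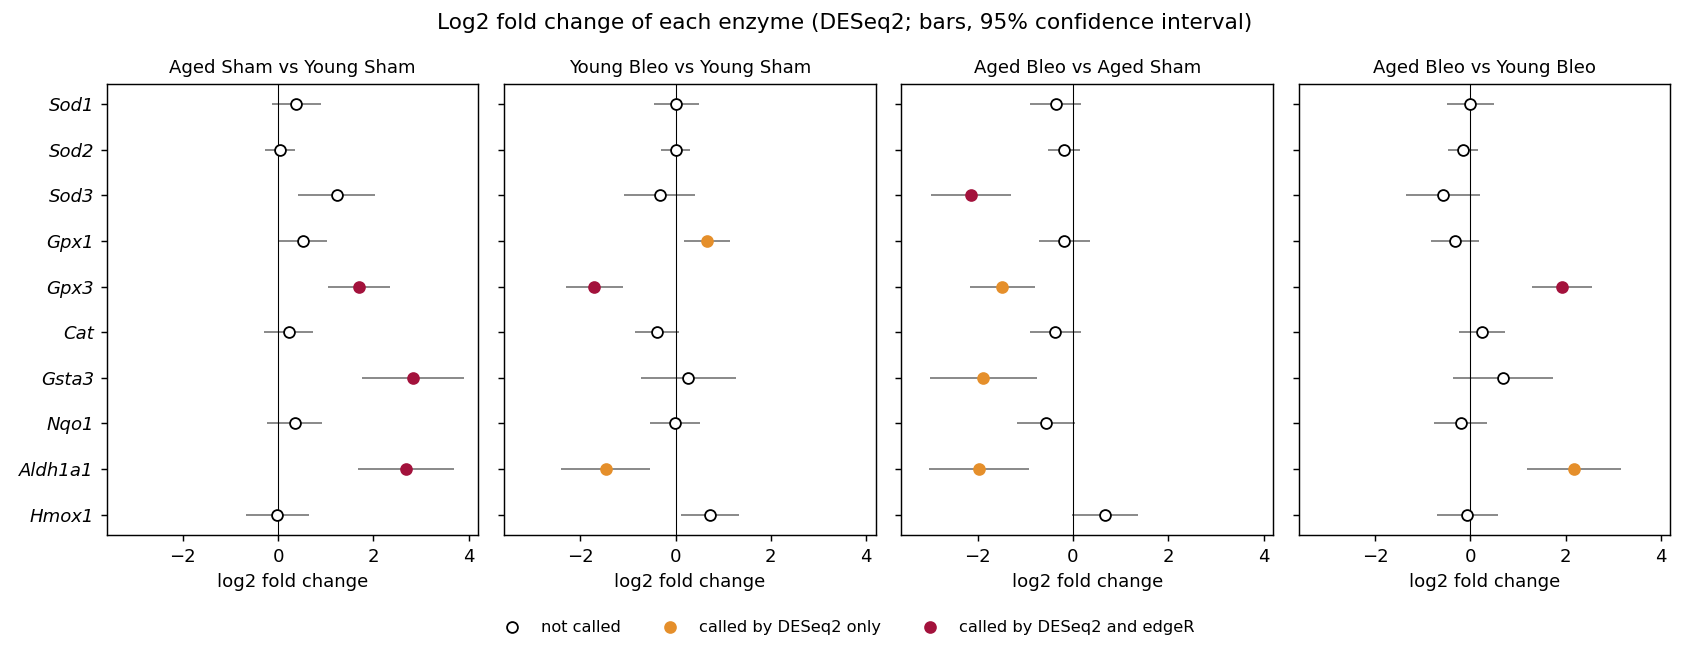
Log2 fold change (points) with 95% confidence interval (bars) of each enzyme in 4 comparisons, from DESeq2 over 16 libraries, coloured by the tests that called it. Gpx3 was called in all 4 comparisons, higher in aged than in young ECs and lower after bleomycin.

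The comparison of Young Bleo with Young Sham asks how the young endothelium responded to injury. By DESeq2, Gpx3 and Aldh1a1 were called lower and Gpx1 higher. DESeq2 thus called 1 of 10 enzymes higher, where 7.69% of all genes were, and 2 lower, where 6.44% of all genes were. Of these, edgeR called Gpx3 alone, against 9.78% of genes in either direction. The higher count of DESeq2 and the count of edgeR were thus near the shares of all genes. The median log2 fold change was -0.0046 over the enzymes and 0.0088 over all genes, and 4 enzymes had an unadjusted p under 0.05 by each tool.

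Gpx3 was at 40.0, 31.8, 38.9 and 59.1 FPKM in Young Bleo 17 to 20, each below the lowest of the 5 Young Sham libraries at 129 FPKM. It was 3.26-fold lower, a log2 fold change of -1.70 (SE 0.304, DESeq2 adjusted p = 1.99e-06, edgeR adjusted p = 0.00459), and was called in all 16 fits that left out 1 library.

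Aldh1a1 was at 1.10, 0.426, 0.565 and 2.18 FPKM in Young Bleo. Library 20 was above 2 of the 5 Young Sham libraries on this scale. On normalized counts the groups did not overlap, with a log2 fold change of -1.47 (SE 0.475, DESeq2 adjusted p = 0.0177, edgeR adjusted p = 0.0773). The DESeq2 call was lost without Young Bleo 18 or 19 or Young Sham 21, at adjusted p of 0.0914, 0.0831 and 0.0826.

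Gpx1, the cytosolic and mitochondrial peroxidase, was at 128, 152, 156 and 81.4 FPKM in Young Bleo and at 79.0, 70.1, 78.6, 93.2 and 82.0 FPKM in Young Sham. Young Bleo 17, 18 and 19 were above every Young Sham library and library 20 was within their range. On counts it rose by 0.66 on the log2 scale (SE 0.242, DESeq2 adjusted p = 0.0419, edgeR adjusted p = 0.0726). This call was kept in 9 of 16 fits that left out 1 library, and was lost without Young Bleo 17, 18 or 19 or Young Sham 21, 22, 23 or 25 (DESeq2 adjusted p 0.0711 to 0.174).

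Hmox1, which releases iron, carbon monoxide and biliverdin from heme, was at 15.1, 11.2, 15.1 and 10.3 FPKM in Young Bleo and at 7.53 to 7.88 FPKM in the 5 Young Sham libraries. The groups did not overlap, and Young Sham was narrow. A log2 fold change of 0.72 (SE 0.309) was not called when all 16 libraries shared a spread (DESeq2 adjusted p = 0.0968, edgeR adjusted p = 0.134). It was called without Aged Bleo 1 (adjusted p = 0.0259) and on Young Bleo and Young Sham alone (adjusted p = 0.000182). The remaining 6 enzymes, among them all 3 dismutases, gave log2 fold changes of -0.39 to 0.27 and were not called.

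The same libraries held fewer aerocyte transcripts. DESeq2 called all 6 aerocyte markers lower in Young Bleo, with a median log2 fold change of -1.94, and 6 of 11 macrophage and leukocyte markers higher, with a median of 2.75. Of 9 endothelial markers, 2 were called higher and 3 lower. Mesothelial markers, with 5 of 6 called higher, summed to 0.0237 to 1.42 FPKM in Young Sham and 5.43 to 15.97 FPKM in Young Bleo. The lymphatic sum went from 265 to 364 FPKM in Young Sham to 681 to 1529 FPKM in Young Bleo, the arterial sum from 100 to 170 to 226 to 387 FPKM and the venous sum from 18.2 to 27.5 to 36.2 to 65.3 FPKM, with 3 of 6, 3 of 6 and 3 of 5 markers called higher. General capillary markers had 3 of 7 called higher, and mural markers, at 30.6 to 75.5 and 12.0 to 34.01 FPKM, had 3 of 7 called lower. Platelet markers summed to 255 to 483 FPKM in Young Sham and 100 to 231 FPKM in Young Bleo, without overlap, and 0 of 4 were called. The fibroblast and alveolar epithelial lists had 1 of 7 called lower each, and the erythroid list 1 of 6 called higher. Young Bleo 20 had the highest aerocyte sum of its group at 945 FPKM, against 208 to 389 FPKM in the others, and also its highest Gpx3 and Aldh1a1 and lowest Gpx1 and Hmox1. The part of these markers in the changes of the enzymes was not tested.

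**Figure D3:**
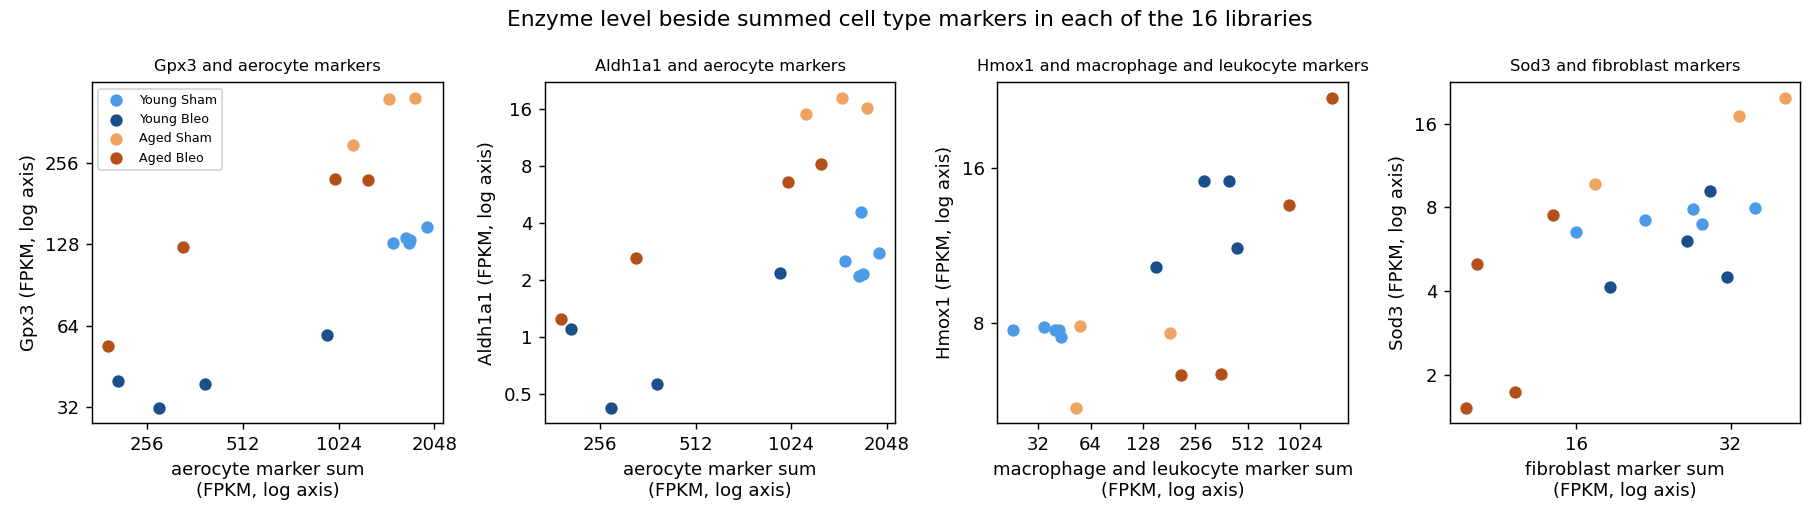
FPKM of Gpx3, Aldh1a1, Hmox1 and Sod3 against the summed FPKM of a cell type marker list (both log axes) in each of the 16 libraries, coloured by group. The Aged Sham points for Gpx3 and Aldh1a1 sit above the Young Sham points, and the aerocyte sums of these groups are 1139 to 1779 and 1513 to 1940 FPKM.

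The comparison of Aged Bleo with Aged Sham asks how the aged endothelium responded to injury. Sod3, Aldh1a1, Gsta3 and Gpx3, the same enzymes that stood highest in Aged Sham relative to Young Sham, were downregulated. DESeq2 called 4 of 10 enzymes lower, where 2.41% of all genes were, and 0 higher, where 3.36% of all genes were. By edgeR, Sod3 alone was called, against 0.797% of genes in either direction, and no enzyme with a positive change had an unadjusted p under 0.05 by either tool. The median log2 fold change was -0.47 over the enzymes and 0.01 over all genes. This comparison and that of age share the 3 Aged Sham libraries, so the opposite directions are not separate observations.

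Sod3 was at 1.73, 1.52, 7.49 and 4.99 FPKM in Aged Bleo 1, 2, 3 and 5, all below the lowest Aged Sham library at 9.70 FPKM. It was 4.40-fold lower, a log2 fold change of -2.14 (SE 0.431, DESeq2 adjusted p = 0.000188, edgeR adjusted p = 0.0444), and was called in all 16 fits that left out 1 library. Libraries 1 and 2, which stood apart by their markers, had the lowest Sod3. Without both, the log2 fold change was -1.49 (DESeq2 adjusted p = 0.00697).

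Gpx3 was at 53.9, 125, 222 and 224 FPKM in Aged Bleo, and its highest value was below the lowest Aged Sham value of 299 FPKM. The log2 fold change was -1.48 (SE 0.346, DESeq2 adjusted p = 0.00163), and edgeR left it just past the threshold (adjusted p = 0.05 after rounding). It was called by DESeq2 in all 16 fits that left out 1 library, and without both libraries 1 and 2 it was at -0.998 (adjusted p = 0.00961).

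Aldh1a1 was at 1.25, 2.63, 8.23 and 6.58 FPKM in Aged Bleo, below all Aged Sham libraries. This gave a log2 fold change of -1.97 (SE 0.537, DESeq2 adjusted p = 0.00917, edgeR adjusted p = 0.0816). Without Aged Sham 13 the adjusted p was 0.0562, and without Aged Bleo 1 and 2 together it was 0.202 at a log2 fold change of -1.33.

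Gsta3 was at 0.249, 0.0935, 0.823 and 0.626 FPKM in Aged Bleo, and its highest value was below the lowest Aged Sham value of 0.898 FPKM. The log2 fold change was -1.88 (SE 0.572, DESeq2 adjusted p = 0.0240, edgeR adjusted p = 0.109). The DESeq2 call was lost without Aged Bleo 1 or Aged Sham 13 or 15 (adjusted p = 0.111, 0.194 and 0.0631) and without Aged Bleo 1 and 2 together (adjusted p = 0.284).

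Hmox1 split the Aged Bleo group. It was at 21.9 and 13.5 FPKM in libraries 1 and 2, above the Aged Sham values of 5.49, 7.65 and 7.89 FPKM, and at 6.38 and 6.36 FPKM in libraries 3 and 5, within them. The log2 fold change was 0.67 (SE 0.352, DESeq2 adjusted p = 0.283), and without libraries 1 and 2 it was -0.30 (adjusted p = 0.592), so its direction rested on these libraries. Library 1 had the highest Hmox1 and the highest macrophage and leukocyte sum of all 16 libraries, and the part of these cells in Hmox1 was not tested. Sod1, Sod2, Gpx1, Cat and Nqo1 gave log2 fold changes of -0.56 to -0.18 and were not called.

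The fibroblast markers had a lower sum in Aged Bleo than in Aged Sham. Their sum over 7 genes was 9.73 to 14.4 FPKM in Aged Bleo and 17.4 to 40.8 FPKM in Aged Sham, with 2 of 7 called lower and Col1a1 itself at 0.676 to 2.49 FPKM and 0.762 to 1.59 FPKM. Other lists moved as well. The 6 aerocyte markers had a median log2 fold change of -1.13 with 0 called, and their sums were lowest in Aged Bleo 1 and 2, which also had the lowest Gpx3, Aldh1a1, Gsta3 and Sod3 of the group. Platelet markers, with 3 of 4 called lower and a median log2 fold change of -2.55, summed to 58.9 to 447 FPKM in Aged Bleo and 581 to 3160 FPKM in Aged Sham. Mural markers, at 9.34 to 14.7 and 20.1 to 33.7 FPKM, had 2 of 7 called lower. Macrophage and leukocyte markers had 6 of 11 called higher, with a median of 3.27. General capillary markers, at 585 to 758 and 358 to 550 FPKM, had 4 of 7 called higher, and arterial markers, at 158 to 401 and 81.7 to 133 FPKM, had 3 of 6 called higher. The part of these markers in the changes of Sod3 and the other enzymes was not tested.

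The comparison of Aged Bleo with Young Bleo asks how injured aged ECs differed from injured young ones. Gpx3 and Aldh1a1 were upregulated in Aged Bleo, while the other 8 enzymes were not called. DESeq2 called 2 of 10 enzymes higher, where 0.608% of all genes were, and 0 lower, where 0.411% of all genes were. By edgeR, Gpx3 was called and Aldh1a1 was not, against 0.0437% of genes in either direction, and no enzyme with a negative change had an unadjusted p under 0.05 by either tool.

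Gpx3 in Aged Bleo 2, 3 and 5 was above every Young Bleo library, while library 1 at 53.9 FPKM lay below Young Bleo 20 at 59.1 FPKM. The increase was 3.77-fold, a log2 fold change of 1.91 (SE 0.321, DESeq2 adjusted p = 4.58e-06, edgeR adjusted p = 0.0482). It was called in all 16 fits that left out 1 library but not by limma on log2(FPKM + 0.1) (adjusted p = 0.0505), and it was 2.40 without libraries 1 and 2 (adjusted p = 4.38e-23).

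Aldh1a1 in Aged Bleo 2, 3 and 5 was likewise above every Young Bleo library, and library 1 at 1.25 FPKM was not. The log2 fold change was 2.17 (SE 0.5, DESeq2 adjusted p = 0.00431, edgeR adjusted p = 0.219), and the call was lost without Aged Bleo 3 (adjusted p = 0.0718). The aerocyte sums of these groups, 193 to 1271 and 208 to 945 FPKM, overlapped, with a median log2 fold change of 0.77 over the 6 markers. Fibroblast sums, 9.73 to 14.4 FPKM in Aged Bleo and 18.6 to 31.5 FPKM in Young Bleo, and lymphatic sums, 317 to 611 and 681 to 1529 FPKM, did not overlap. The endothelial, general capillary, lymphatic, fibroblast and mural lists had 1 marker called lower each, and the part of these markers in the changes of Gpx3 and Aldh1a1 was not tested. Hmox1 changed its call when Aged Bleo 1 and 2 were left out. Its log2 fold change was -0.06 in all libraries (adjusted p = 0.986) and -1.03 without them (adjusted p = 5.21e-05).

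The comparison of Aged Bleo with Young Sham sets the injured aged endothelium against the uninjured young one. DESeq2 called 0 of the 10 enzymes, where 6.49% of all genes were called higher and 3.09% lower. The edgeR test also called 0, where 5.69% of genes were called in either direction, and 2 enzymes had an unadjusted p under 0.05 by each tool. These were Sod3 at -0.91 (95% interval -1.65 to -0.17, DESeq2 adjusted p = 0.108) and Hmox1 at 0.65 (95% interval 0.05 to 1.26, DESeq2 adjusted p = 0.172). Gpx3 was at 0.21 (95% interval -0.39 to 0.81), with Aged Bleo spread on both sides of Young Sham. Without Aged Bleo 3 both Hmox1 and Sod3 passed (adjusted p = 0.0291 and 0.00142), and without Aged Bleo 5 Hmox1 passed (adjusted p = 0.0341). Without Aged Bleo 1 and 2 together, Gpx3 at 0.69 (adjusted p = 0.0487) and Gsta3 at 1.64 (adjusted p = 0.0290) passed instead. In that fit Sod3 was at -0.26 (DESeq2 adjusted p = 0.842) and Hmox1 at -0.31 (DESeq2 adjusted p = 0.545), so the direction of Hmox1 turned. In the same comparison 8 of 11 macrophage and leukocyte markers were called higher, with a median log2 fold change of 4.30, as were 4 of 6 mesothelial, 4 of 6 arterial, 4 of 5 venous and 3 of 7 general capillary markers. All 7 mural, 4 of 7 fibroblast, 3 of 9 endothelial and 2 of 6 aerocyte markers were called lower, and their part was not tested.

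The response to bleomycin was compared between ages by the difference of the responses, aged minus young. None of the 10 enzymes was called by DESeq2, where 0.139% of all genes had a higher and 0.243% a lower response with age, or by edgeR, where 0.00546% of genes were called. By each tool 3 enzymes had an unadjusted p under 0.05. They were Gsta3 at -2.15 (95% interval -3.65 to -0.65, DESeq2 adjusted p = 0.292), Sod3 at -1.81 (95% interval -2.93 to -0.68, adjusted p = 0.177) and Gpx1 at -0.84 (95% interval -1.56 to -0.12, adjusted p = 0.49). Gpx3, which fell at both ages, gave a difference of 0.22 (95% interval -0.68 to 1.13). Sod3 passed without Aged Bleo 3 (-2.31, adjusted p = 0.00646). Without Aged Bleo 1 and 2 together, Hmox1 at -1.02 (adjusted p = 0.0102) and Gpx1 at -1.23 (adjusted p = 0.0320) passed. In that fit Sod3 at -1.16, Gsta3 at -1.47 and Gpx3 at 0.70 did not pass (DESeq2 adjusted p = 0.0886, 0.18 and 0.149).

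Sod1, Sod2, Cat and Nqo1 were not called in any of the 6 comparisons, nor in any fit that left out 1 library. Sod2, the mitochondrial dismutase, had log2 fold changes between -0.19 and 0.04 in the pairwise comparisons. On FPKM its ranges in Aged Bleo, 9.60 to 12.7, and in Young Bleo, 13.1 to 13.6, did not overlap (exact two-sided permutation p = 0.0286, the smallest these libraries allow), while the count test gave -0.15 (DESeq2 adjusted p = 0.847). In Aged Sham against Young Sham the 95% intervals reached 0.89 for Sod1 and 0.93 for Nqo1, so changes of up to that size lie within them. Sod1 ranged from 59.2 to 128 FPKM over the 16 libraries, Cat from 10.7 to 27.9 FPKM and Nqo1 from 2.38 to 5.73 FPKM, with all groups overlapping. In Nqo1, which reduces quinones and is a common readout of NRF2, Young Sham itself split into 2.65 to 3.04 FPKM in 3 libraries and 5.45 to 5.73 FPKM in the other 2.

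Across the 16 libraries, Gpx3 and Aldh1a1 followed each other most closely among the enzymes, with a Pearson correlation of 0.957 on log2(normalized count + 1). Among genes whose mean normalized count reached 50, the most similar to Gpx3 were 1500009L16Rik (0.961), Aldh1a1 (0.957) and Cdkn1a (0.952), the last an inhibitor of the cell cycle. The most similar to Aldh1a1 were Gpx3 (0.957), Pcolce2 (0.943) and 1500009L16Rik (0.931). Sod3 was most like Ogn (0.942), Inmt (0.936) and Gsn (0.932), and Gsta3 was most like Chst9 (0.901), Pid1 (0.890) and Cdo1 (0.880). Hmox1 was most like Atp1b3 (0.931), Sdr39u1 (0.917) and Mtmr11 (0.912). Gpx1 was nearest to Tpt1-ps3 (0.966), Rpl14-ps1 (0.965) and Rpl14 (0.962), which are a ribosomal protein gene and pseudogenes. Sod1 was nearest to Ndufb10 (0.977), Ndufb3 (0.970) and Dynlrb1 (0.966), of which the Ndufb genes encode subunits of mitochondrial complex I. Cat was nearest to Mtmr14 (0.946), Sod2 to Frg1 (0.893) and Nqo1 to Micu2 (0.764), the lowest of these best matches. These are descriptions over libraries that share groups and cell makeup.

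The rest of the antioxidant system was read from a list of 60 other genes, of which DESeq2 gave an adjusted p for 57 in each comparison. In Aged Sham against Young Sham, 17 were called higher and 0 lower by DESeq2, where 2.19% and 1.10% of all genes were, and the median log2 fold change was 0.35 over the list and 0.02 over all genes. By edgeR 5 were higher and 0 lower, against 0.862% of all genes in either direction, and 26 and 25 of the list had an unadjusted p under 0.05 by DESeq2 and edgeR. Without Aged Sham 14 the DESeq2 count was 5, without Young Sham 22 it was 10 and without Young Sham 23 it was 11. The calls came from each of the 8 groups of the list. By number of genes they were led by glutathione S-transferases (4 of 11), peroxiredoxins and related genes (3 of 11) and aldehyde and carbonyl enzymes (3 of 8). The heme and iron group had 2 of 5. Largest were Aldh1a7, a relative of Aldh1a1, at 5.28 (DESeq2 adjusted p = 0.000133, edgeR adjusted p = 0.0353), Gstp2 at 3.61 (DESeq2 adjusted p = 0.0133, edgeR adjusted p = 0.139) and Aldh1a2, which makes retinoic acid, at 3.02 (DESeq2 adjusted p = 0.0380, edgeR adjusted p = 0.156). Gstp2 is 98.2% identical to Gstp1 over 707 bases, so its counts are uncertain. Aldh1a7 was low, at 7.02 ± 10.8 normalized counts in Young Sham, and reached 673 in Aged Sham 14 against 73.9 and 85.0 in Aged Sham 13 and 15. Without Aged Sham 14 its log2 fold change was 3.47 and the call was lost (DESeq2 adjusted p = 0.0776), and without Young Sham 21 it was 6.71. Gstp2 was at 771, 30.0 and 394 normalized counts in Aged Sham 13, 14 and 15 and at 26.4 to 39.1 in Young Sham, so the groups overlapped. Without Aged Sham 13 its log2 fold change was 2.71, and DESeq2 gave no adjusted p for it without any 1 of the 3 Aged Sham libraries. The call of Aldh1a2 was kept in 10 of 16 fits that left out 1 library, and was lost without Aged Sham 13, 14 or 15, Young Bleo 17 or 19 or Young Sham 21 (DESeq2 adjusted p 0.0509 to 0.16). Besides Aldh1a7, edgeR called Me1, Gstp1, Fth1 and Ftl1, which are named after their values were seen. Fth1 and Ftl1, the ferritin subunits that store iron, were higher by 1.01 and 1.09 (edgeR adjusted p = 0.0122 and 0.00364), and Ftl1 has near identical pseudogene copies. Of the 6 NRF2 regulators listed, DESeq2 called 1 higher, Maff at 1.32 (DESeq2 adjusted p = 0.0181, edgeR adjusted p = 0.0944), named after its value was seen. The master regulator Nfe2l2 (NRF2) was at 0.13 (DESeq2 adjusted p = 0.632) and its repressor Keap1 at -0.36 (DESeq2 adjusted p = 0.445), and neither was called. These are transcript levels, and the activity of NRF2 was not measured.

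In Young Bleo against Young Sham, DESeq2 called 10 of the 60 higher and 3 lower, where 7.69% and 6.44% of all genes were, with a median of 0.0023 over the list and 0.0088 over all genes, so the lower calls were not above the background share. By edgeR these were 5 and 2, against 9.78% of all genes in either direction. Gsta4, a transferase for lipid aldehydes, was at 561.9 ± 342 normalized counts in Young Bleo and 57.6 ± 30.3 in Young Sham, without overlap, and was upregulated by 3.29 (DESeq2 adjusted p = 1.92e-08, edgeR adjusted p = 0.00225). Aldh1a7 at 2.89 and Aldh1a2 at 2.55 also rose by DESeq2 (adjusted p = 0.0251 and 0.0236, edgeR 0.0854 and 0.0793), and each call was kept in 13 of 16 fits that left out 1 library. Without Young Sham 21 the Aldh1a7 value was 4.33. Downregulated were the microsomal transferase Mgst2 at -1.45 (DESeq2 adjusted p = 0.0205, edgeR adjusted p = 0.0714), the mitochondrial aldehyde dehydrogenase Aldh2 at -1.05 (DESeq2 adjusted p = 0.00209, edgeR adjusted p = 0.0236) and Gstm1 at -0.75 (DESeq2 adjusted p = 0.00208, edgeR adjusted p = 0.0203). The Mgst2 call was lost without Young Bleo 17 or 18 or Young Sham 24 (DESeq2 adjusted p = 0.0988, 0.0846 and 0.061).

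In Aged Bleo against Aged Sham, 10 of the 60 were called lower and 0 higher by DESeq2, where 2.41% and 3.36% of all genes were, with a median of -0.26 over the list and 0.01 over all genes. By edgeR 2 were lower and 0 higher, against 0.797% of all genes in either direction, and 21 and 20 of the list had an unadjusted p under 0.05 by DESeq2 and edgeR. Among the genes called, the largest decreases were those of Srxn1, which repairs oxidized peroxiredoxins, at -1.18, Gclm, a subunit of the enzyme that limits glutathione synthesis, at -1.12, and Gstt1 at -1.06 (DESeq2 adjusted p = 0.0124, 0.00200 and 0.0125, edgeR 0.0780, 0.05 and 0.0741). The 2 that edgeR called, named after their values were seen, were Prdx6 at -0.98 and Taldo1 at -0.86. Srxn1 and Gclm were at 6544 ± 3808 and 8570 ± 4115 normalized counts in Aged Sham, so the 3 aged sham libraries differed widely. Both were highest in Aged Sham 14, which also had the highest club cell and platelet sums of all libraries. Its club cell sum was 411 FPKM against 14.0 and 25.6 FPKM in Aged Sham 13 and 15. Its platelet sum was 3160 FPKM against 884.5 and 581 FPKM there. Young Sham 21 had a club cell sum of 372 FPKM. Its Srxn1 and Gclm, at 3106 and 4973 normalized counts, were within the range of the other Young Sham libraries. The part of these cells was not tested. Without Aged Sham 14 the value of Srxn1 was -0.63 (DESeq2 adjusted p = 0.219). The Srxn1 call was also lost without Aged Bleo 1 or 2 (adjusted p = 0.0756 and 0.0526), and that of Gstt1 without Aged Bleo 1 or 2 or Aged Sham 13 (adjusted p = 0.0735, 0.0531 and 0.147). Without Aged Bleo 1, DESeq2 called 4 of the 60, and without Aged Bleo 1 and 2 together it called 1.

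Me1, an enzyme that supplies NADPH, was the single gene of the 60 called between Aged Bleo and Young Bleo, where 0.608% of all genes were called higher and 0.411% lower. It was higher by 1.31 (DESeq2 adjusted p = 0.0454, edgeR adjusted p = 0.28), and the call was kept in 6 of 16 fits that left out 1 library. Against Young Sham, 12 of the 60 were called higher and 1 lower in Aged Bleo by DESeq2, where 6.49% and 3.09% of all genes were, and 9 and 0 by edgeR, where 5.69% were called in either direction, with an unadjusted p under 0.05 for 23 and 22. The DESeq2 total of 13 was 7 without Aged Bleo 1, 8 without Young Sham 22 and 4 without Aged Bleo 1 and 2 together. They were led by Aldh1a7 at 4.60, the metallothionein Mt1 at 2.96 and Gsta4 at 2.11 (edgeR adjusted p = 0.0185, 0.00353 and 0.0227). Without Young Sham 21 Aldh1a7 was at 6.04, and without Aged Bleo 2 Mt1 was at 2.37, both still called. Mt1 was at 1102 and 1804 normalized counts in Aged Bleo 1 and 2, the libraries that stood apart by their markers, and at 435.5 and 255.5 in libraries 3 and 5. In the other direction, Gpx8, a peroxidase of the endoplasmic reticulum, was lower by -0.94 (DESeq2 adjusted p = 0.0387, edgeR adjusted p = 0.0976). The Gpx8 call was kept in 9 of 16 fits that left out 1 library, and was lost without Aged Bleo 1, 3 or 5 or Young Sham 21, 22, 23 or 24 (adjusted p 0.0569 to 0.119).

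**Figure D4:**
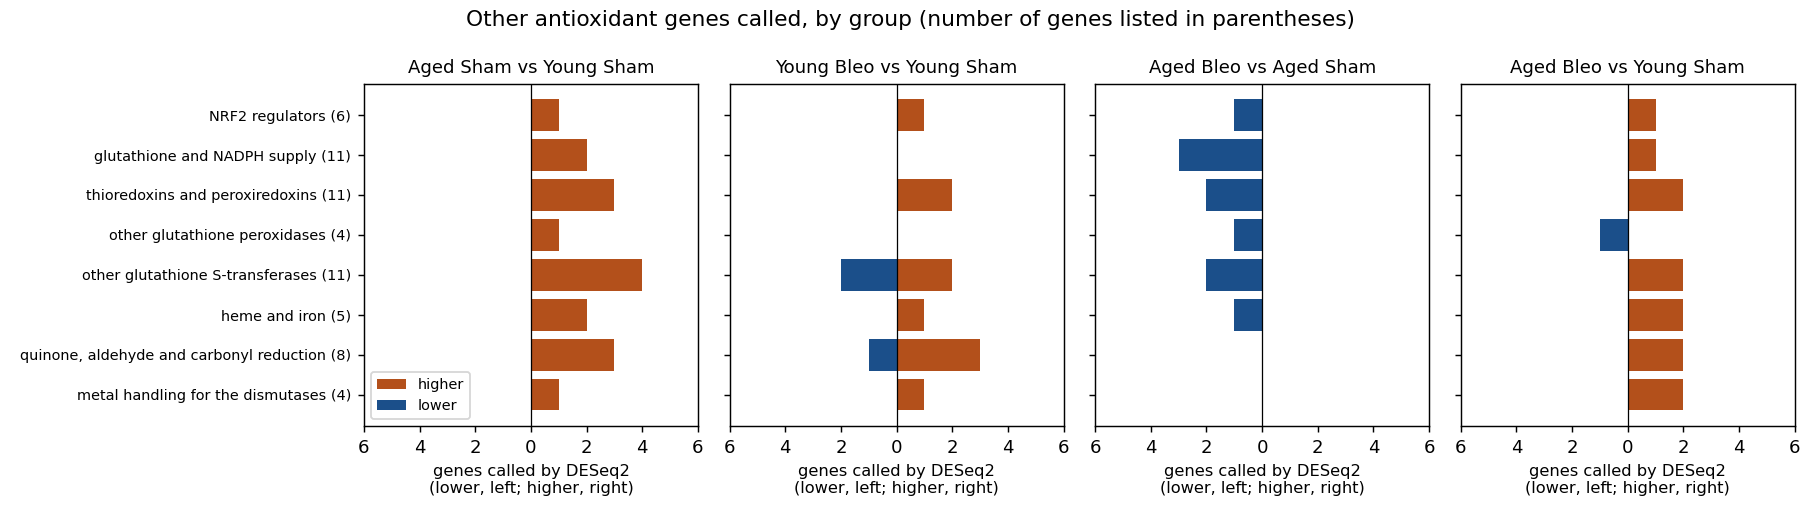
Number of other antioxidant genes called higher (right) or lower (left) by DESeq2 in 4 comparisons, by group of the list, with the number of listed genes in parentheses. Aged Sham shows 17 genes higher than Young Sham and 0 lower (5 called without Aged Sham 14), and Aged Bleo shows 10 genes lower than Aged Sham and 0 higher (4 called without Aged Bleo 1).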

How the data were processed

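RNA was sequenced from sorted lung ECs in 16 libraries, grouped by their titles. Per the labels and the submitters' processing notes, the authors aligned reads to mm10 with STAR 2.5.2b and counted them with Subread featureCounts, and the annotation release and strand setting are not given in the sources used here. The library kit differs between sources, SMART-Seq and Nextera in the labels and TruSeq in the paper, and was not settled here. The deposited table holds whole-number counts per gene, not normalized, and FPKM that the authors computed from counts, gene length and a library total, called RPKM in the methods. Libraries held 20.9 to 71.0 mega-counts, and low genes are the less precise.

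Deposited counts of 43346 genes were fitted with DESeq2 1.42.0 (R 4.3.3, Wald test, median-ratio size factors, all 16 libraries in 1 model with group as its term), since the study's methods name it with these thresholds. A call needed a Benjamini-Hochberg adjusted p no higher than 0.05, over all genes tested, and a log2 fold change of 0.5 or more in size. A term for batch was not possible. Alternatives were edgeR 4.0.16 (quasi-likelihood), TMM size factors, removal of genes without 10 counts in at least 3 libraries, no filter, limma 3.58.1 on log2(FPKM + 0.1) and log2(FPKM + 1) for genes with a mean of at least 0.1 FPKM, fits on 2 groups alone, leaving out each library, and leaving out Aged Bleo 1 and 2 together, the last chosen after seeing the data. The fits were also run on simulated counts to check the code, and no result here rests on that run. FPKM is used for levels and normalized counts for tests. Nothing in the labels says that replicates share more than their group, and each library is treated as a separate mouse, so p-values measure the spread between these libraries.

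The enzymes, gene lists and tests were chosen with earlier results of these data known. All 10 enzymes are named, as are, of 60 other antioxidant genes, at most the 3 highest and 3 lowest called per comparison whose mean normalized count reached 50, unless stated, and the 3 genes most correlated with an enzyme, by the same minimum. Of the 14 marker lists, Adgre1 was read under its older symbol Emr1. Near copies were transcripts of at least 95% identity over 300 bases. Coordinates are those of the deposited table (mm10), and promoter sequences and their positions are from RefSeq (GRCm38.p6).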

Additional observations from a re-analysis of the deposited data

Results flagged for a closer look

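In the difference of responses to bleomycin, aged minus young, DESeq2 called 1 of the 60 other antioxidant genes, and 15 had an unadjusted p under 0.05. Of all genes, 0.139% were called higher and 0.243% lower. The edgeR test called 0 of the 60, where 0.00546% of all genes were called. The gene called was the glutathione S-transferase Gsta4, with a log2 difference of -3.00 (SE 0.762, DESeq2 adjusted p = 0.0321, edgeR adjusted p = 0.366). It rose by 3.29 in young ECs, while the aged response was 0.29 (DESeq2 adjusted p = 0.862). Gsta4 was also higher in Aged Sham than in Young Sham, at 187 to 218 against 12.4 to 89.0 normalized counts, by 1.82 (DESeq2 adjusted p = 0.0327, edgeR adjusted p = 0.135), and the difference of responses uses these Sham libraries. In Young Bleo 17 to 20 it was at 986, 506, 601 and 155 normalized counts, lowest in library 20, which had the highest aerocyte sum of its group. In the difference of responses, 3 of 6 mesothelial markers were called lower (median -4.84), as was 1 of 7 fibroblast markers, and 1 of 7 general capillary markers was called higher, and their part was not tested. The DESeq2 call of the difference was kept in 8 of 16 fits that left out 1 library. Each enzyme was also examined within each group of 4 or 5 libraries for a library far from the others by Dixon's criterion, in 30 tests, and 0 met it. The criterion looks for a lone library, so it can miss a pair such as Aged Bleo 1 and 2, and Aged Sham was not examined. It does not show that the groups are uniform.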

How the results depend on the processing

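Single values of the 10 enzymes stayed on the same side of the threshold in 1381 values from alternative fits, lost the call in 32 and gained it in 17. No called value changed sign. Among the 1381, values that were not called changed sign 69 times, with a size of at most 0.31 in the alternative and 0.67 in all libraries. No paired analysis was possible because replicate numbers do not repeat between groups. Of the enzymes called, edgeR gave 1 in Young Bleo against Young Sham, 1 in Aged Bleo against Aged Sham and 1 in Aged Bleo against Young Bleo (DESeq2 3, 4 and 2). With limma on log2(FPKM + 0.1) these were 2 in Aged Bleo against Aged Sham and 0 in Aged Bleo against Young Bleo, and on log2(FPKM + 1) the latter was 1. Without Aged Bleo 1 and 2 there were 2 in Aged Bleo against Aged Sham, 2 in Aged Bleo against Young Sham and 2 in the response difference. Of the 60 other genes, DESeq2 called 17, 13, 10, 1, 13 and 1 in the order Aged Sham against Young Sham, Young Bleo against Young Sham, Aged Bleo against Aged Sham, Aged Bleo against Young Bleo, Aged Bleo against Young Sham and the response difference. Counts that differed by over 1.5 times were 5, 7, 2, 0 and 0 with edgeR in the first 4 and the last. With limma they were 5 or 4 in the first, 2 and 2 in the third, and 0 in the fourth and last at either pseudocount. Removing low counts, no filter and 2 groups alone gave 0 in the fourth, and 2 groups alone gave 4 in the third. Without Aged Bleo 1 and 2 there were 1, 4, 4 and 7 in the third to the last.

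Leaving out 1 library gave 3 to 4, 1 to 4, 2 to 4, 1 to 2, 0 to 2 and 0 to 1 enzymes in the same order, and 5 to 19, 7 to 16, 4 to 11, 0 to 2, 7 to 13 and 0 to 4 of the other genes. The lowest count of other genes came without Aged Sham 14 in the first comparison, Young Bleo 17 in the second and Aged Bleo 1 in Aged Bleo against Aged Sham or Young Sham. Without Young Sham 22 the count was 10 in the first and 8 in Aged Bleo against Young Sham, and without Young Sham 23 it was 11 in the first. Over all genes, DESeq2 called 617, 2579, 1081, 191, 1797 and 77, against 158, 1793, 146, 8, 1043 and 1 with edgeR, 139, 1990, 369, 32, 1141 and 0 with limma at 0.1, 159, 1478, 279, 54, 892 and 3 at 1, and 832, 2887, 132, 1101, 421 and 608 without Aged Bleo 1 and 2. Leaving out 1 library gave 374 to 686, 1805 to 3334, 472 to 1496, 110 to 475, 1042 to 2271 and 37 to 223 over all genes. Moves of over 1.5 times were 374 without Aged Sham 14 in the first, 472 without Aged Bleo 1 and 656 without Aged Sham 15 in the third, 357, 120, 110 and 475 without Aged Bleo 1 or 5 or Young Bleo 19 or 20 in the fourth, 1042 and 1109 without Aged Bleo 1 or 2 in the fifth, and 45, 45, 37 and 223 without Young Bleo 17, 18, 19 or 20 in the last, and the shares of all genes called move with them. With 2 groups alone, 653 were called in Aged Bleo against Aged Sham. The cause of these differences was not tested. Gsta3 and Aldh1a1, at lowest counts of 50 and 84, are the members that depth limits most.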
